A study of Mus musculus with 70 samples.

Results

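The expression of 10 hypothalamic transcription factor genes (Nkx2-1, Nr5a1, Sim1, Otp, Bsx, Hmx2, Hmx3, Fezf1, Lhx9 and Isl1) was examined across the mouse brain. The 10 genes were taken by name, without a threshold, from the 34677 genes with a deposited gene-level value, and the embryonic hypothalamus was set against 5 adult hypothalamic nuclei. All 10 had enough reads to be tested.

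RNA was sequenced in 70 libraries from 24 groups. All animals were C57BL/6NTac mice (C57BL/6 in the labels) without a transgene or a treatment named in the labels. The adult tissue came from males at P56 (postnatal day 56) and the embryonic tissue from embryos at E14.5 (days of embryonic development). Each library was made from the pooled tissue of several animals, except for 1 library of the nucleus accumbens, so the spread between replicates is the spread between pools. According to the study's methods, fewer animals were used than separate pools would need, so that different regions share animals. Which libraries share them is not given in the sources used here, and the tests treat libraries as independent. The embryonic hypothalamus, labelled as its terminal (rostral) and peduncular (caudal) parts together and called THy/PHy here, had 3 libraries. The adult hypothalamus had 14 libraries from 5 nuclei, namely the arcuate nucleus (ARH, n = 3), the dorsomedial nucleus (DMH, n = 4), the lateral hypothalamic area (LHA, n = 3), the paraventricular nucleus (PVH, n = 2) and the ventromedial nucleus (VMH, n = 2). The embryonic midbrain (M, n = 2), hindbrain (H, n = 3) and forebrain (F, n = 1) and 13 other adult regions with 43 libraries served as the rest of the brain. These adult regions were the anterior cingulate area, frontal pole, entorhinal area, nucleus accumbens (ACB), ventral tegmental area (VTA), parabrachial nucleus (PB), nucleus of the solitary tract (NTS), dorsal vagal complex (DVC) and, in the cerebellum, the cerebellar nuclei, central lobule II (CENT2), culmen lobules IV-V (CUL4-5), uvula and flocculus. A further 4 libraries came from 2 clones of C57BL/6 embryonic stem cells. Adult and embryonic tissue was collected in different batches, so that stage and batch cannot be told apart, and the comparison of stages has no values from within 1 batch.

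The hypothalamus is a small region of the ventral forebrain whose neurons regulate feeding, temperature, stress, reproduction and growth, largely through neuropeptides. During development, transcription factors divide the hypothalamic primordium into domains, and each domain gives rise to particular nuclei and neuron types. Nkx2-1 is known as a marker of the ventral domains, Nr5a1 and Fezf1 as regulators of the ventromedial nucleus, Sim1 and Otp of the neurosecretory neurons of the paraventricular nucleus, and Bsx, Hmx2, Hmx3 and Isl1 as factors of arcuate and other tuberal neurons.

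Depth was between 9074581 and 22229582 estimated reads per library over the series and between 14201960 and 19689276 in the 17 hypothalamic libraries. The labelled tissues were compared with markers of each nucleus. Levels are given as TPM, which counts reads per unit of transcript length and is scaled to the same total in each library. The summed ARH markers (Pomc, Agrp, Npy and Ghrh) reached 1003 to 1685 TPM in ARH against 29.3 to 77.8 TPM in the other 4 nuclei, and the LHA markers (Hcrt and Pmch) 4786 to 7070 TPM in LHA. The VMH libraries also held 4113 and 4534 TPM of these LHA markers, and the list of VMH markers (Adcyap1, Slc17a6, Sox14 and Bdnf) was not highest in VMH, with 157 and 242 TPM against 200 to 287 TPM in DMH. The DMH markers (Npvf, Gpr50 and Ppp1r17) reached 25.4 to 71.2 TPM in DMH and were higher in ARH, at 90.4 to 110 TPM, and in VMH, at 84.1 and 207 TPM. The PVH markers (Oxt, Avp, Crh and Trh) did not separate PVH, with 773 and 3334 TPM in PVH against 395 to 2564 TPM in ARH and 1298 and 294 TPM in VMH. VMH, DMH and PVH are therefore named here by their labels. In whole tissue, fewer cells of a type and less RNA per cell cannot be told apart.

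All 10 genes were higher in THy/PHy than in the mean of the 5 adult nuclei, by 1.92 (Lhx9) to 4.50 (Nr5a1) on the log2 scale. Over all 19980 genes tested, 18.2% were called higher in this comparison, a gene being called at an adjusted p under 0.05 and a log2 difference beyond 1. The median log2 difference was 2.80 over the 10 genes and 0.00 over all genes. The genes differed, however, in how far the embryonic level exceeded the single nuclei, and 40 of the 50 pairs of a gene and a nucleus were called higher in THy/PHy and 0 lower. These comparisons share the THy/PHy libraries, and between 14.3% (ARH) and 17.7% (LHA) of all genes were called higher in them, with 16.6% against DMH, 14.9% against PVH and 15.1% against VMH. Nkx2-1, Sim1, Otp, Hmx2 and Isl1 were called against each of the 5 nuclei, and for these 5 genes every THy/PHy library lay above every one of the 14 adult hypothalamic libraries, as it did for 19.7% of all genes. For Nr5a1, Bsx, Hmx3, Fezf1 and Lhx9, at least 1 adult nucleus was at a level not called different from the embryonic one. In this comparison each nucleus weighs the same on the log scale, and a nucleus near 0 lowers the adult mean. With the 14 adult libraries taken as 1 group, in a fit of the 17 hypothalamic libraries, only Nkx2-1, Sim1, Otp, Hmx2 and Isl1 were called, while the log2 difference was 1.09 for Nr5a1 (adjusted p = 0.508), 0.95 for Bsx (0.344), 1.58 for Hmx3 (0.0636), 1.88 for Fezf1 (0.125) and 1.45 for Lhx9 (0.0770). The summed markers of dividing cells (Mki67, Top2a, Ccnb1 and Cdk1) were at 139 to 277 TPM in THy/PHy and under 5 TPM in every adult hypothalamic library. The summed astrocyte markers (Aqp4, Gfap, Aldh1l1 and Slc1a2) were at 30.5 to 45.2 TPM in THy/PHy and at 374 to 632 TPM in the adult nuclei, highest in LHA replicate 1. The part of these cells in the stage differences was not tested.

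**Figure D1:**
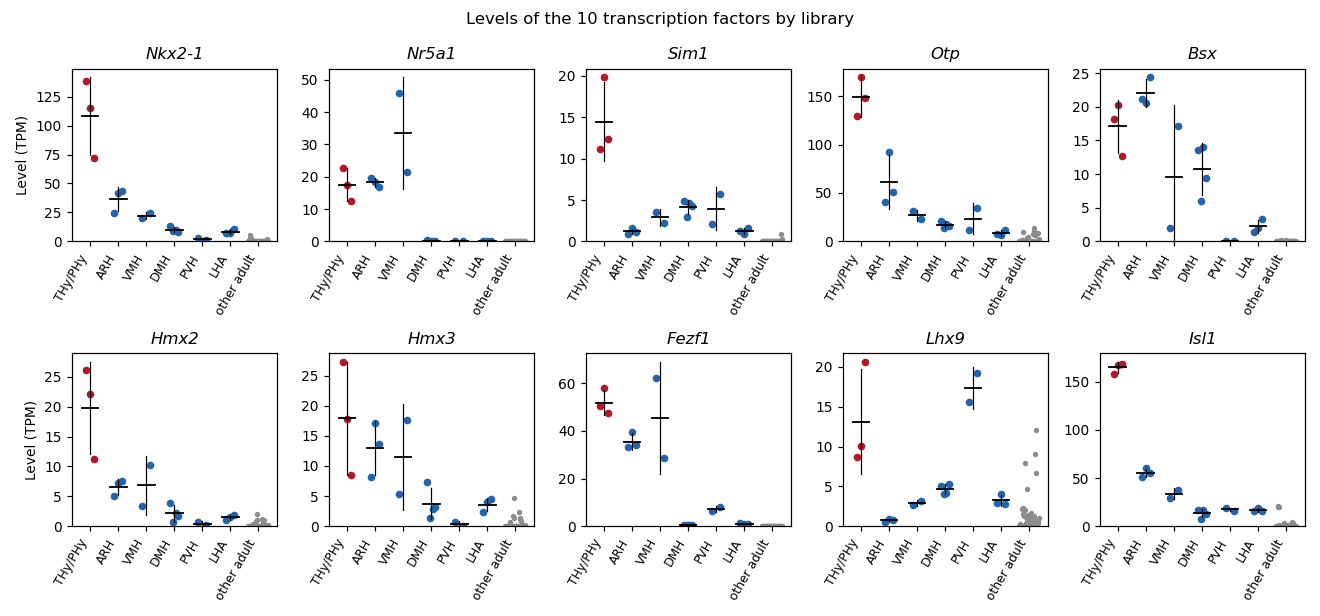
Gene TPM (reads per unit of transcript length, scaled to the same total in each library) of the 10 genes by group, 1 panel per gene. Points are libraries, bars are group means and whiskers are 1 SD where a group has 2 or more libraries. The THy/PHy libraries lie above all adult hypothalamic libraries for Nkx2-1, Sim1, Otp, Hmx2 and Isl1, and overlap them for the other 5 genes.

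**Figure D2:**
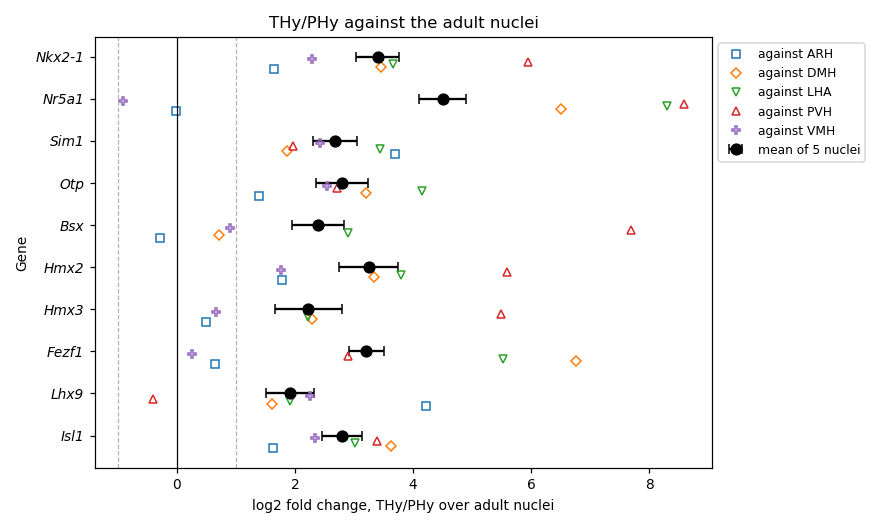
Log2 difference between THy/PHy and each adult nucleus, and between THy/PHy and the mean of the 5 nuclei, for each of the 10 genes. Whiskers are 1 standard error from the fit. Against LHA all 10 genes were called higher, and against ARH and VMH the values of Nr5a1, Bsx, Hmx3 and Fezf1 were closest to 0.

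Nkx2-1 (chromosome 12, 56531958 to 56536908, minus strand, GRCm38) encodes a homeodomain protein needed for the ventral hypothalamus and the ventral telencephalon. Its TPM was 138, 115 and 71.8 in the 3 THy/PHy libraries, 24.7, 42.1 and 43.4 in ARH, and 20.1 and 24.3 in VMH. The level fell further to between 8.06 and 12.9 TPM in DMH, between 7.03 and 10.9 TPM in LHA, and 2.48 and 1.08 TPM in PVH. The embryonic hypothalamus thus did not overlap any adult nucleus, and it exceeded the mean of the 5 nuclei by 3.40 on the log2 scale (SE 0.37, adjusted p = 1.39e-12). The embryonic forebrain, at 128 TPM in its single library, was at the level of THy/PHy, and the hypothalamus held only 58.2% of the summed group means of the gene. Among the adult nuclei, Nkx2-1 was higher in ARH than in the other 4 nuclei (log2 difference 2.18, SE 0.39, adjusted p = 7.33e-06) and lower in PVH (log2 difference -3.18, SE 0.56, adjusted p = 0.000367). The call in PVH was lost without PVH replicate 2, with a log2 difference of -2.66.

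Isl1 (chromosome 13, 116298281 to 116309689, minus strand) encodes a LIM-homeodomain protein of arcuate, striatal and motor neurons. It was the most abundant of the 10 genes per length in THy/PHy, with 158, 168 and 169 TPM, followed closely by Otp. ARH held 51, 60.1 and 54.9 TPM, VMH 29.6 and 37.8 TPM, and the remaining nuclei between 7.78 TPM in 1 DMH library and 19.2 TPM in 1 LHA library. Here the THy/PHy libraries varied least of all 10 genes relative to their mean, and none came near an adult library (log2 difference 2.80, SE 0.34, adjusted p = 1.1e-11). ARH was the only nucleus in which Isl1 was called higher than in the other 4 (log2 difference 1.46, SE 0.35, adjusted p = 0.000645). This call was lost with DESeq2 (1.45, adjusted p = 0.0683) and with limma on log2(TPM + 0.1) (1.54, adjusted p = 0.109). Outside the hypothalamus the gene was found in F (84.9 TPM) and in the adult nucleus accumbens (20.95, 20.4 and 19.6 TPM).

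Nr5a1 (chromosome 2, 38692656 to 38714542, minus strand) encodes steroidogenic factor 1, a nuclear receptor needed for the ventromedial nucleus to form. VMH had the highest mean, with 45.9 and 21.4 TPM in its 2 libraries. ARH had 19.7, 18.3 and 16.8 TPM and THy/PHy 22.7, 17.5 and 12.4 TPM. These 3 groups were within their spread of one another, whereas no library of DMH exceeded 0.346 TPM, none of LHA 0.0694 TPM and none of PVH 0.0410 TPM. The embryonic level was accordingly not called different from ARH (log2 difference -0.01, SE 0.38, adjusted p = 1.00) or from VMH (log2 difference -0.91, SE 0.42, adjusted p = 0.0586). The log2 difference of 4.50 (SE 0.40, adjusted p = 1.37e-16) to the mean of the 5 nuclei came with a ratio of only 1.68 between the mean TPM values, because DMH, LHA and PVH were near 0. Nr5a1 had the largest difference between VMH and the other nuclei of the 10 genes (log2 difference 6.76, SE 0.48, adjusted p = 2.85e-17).

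Fezf1 (chromosome 6, 23245044 to 23248362, minus strand) encodes a zinc-finger transcriptional repressor that acts in forebrain development and is also found in the ventromedial nucleus. It was present at similar levels in THy/PHy (50.3, 57.8 and 47.3 TPM), VMH (62.0 and 28.7 TPM) and ARH (33.0, 39.4 and 34.1 TPM). PVH followed with 6.20 and 7.95 TPM, while LHA (0.818 to 1.55 TPM) and DMH (0.384 to 0.681 TPM) were low. Differences of THy/PHy to VMH (log2 difference 0.26, SE 0.42, adjusted p = 0.627) and ARH (log2 difference 0.64, SE 0.37, adjusted p = 0.144) were not called, and those to the other 3 nuclei were. Within the adult hypothalamus Fezf1 was higher in VMH (log2 difference 3.69, SE 0.36, adjusted p = 1.27e-11) and ARH (log2 difference 3.22, SE 0.31, adjusted p = 6.99e-12), and lower in DMH (log2 difference -4.42, SE 0.40, adjusted p = 3.53e-10) and LHA (log2 difference -2.89, SE 0.37, adjusted p = 4.64e-07). In contrast to Nr5a1, it remained above 6 TPM in both PVH libraries. Both genes had their highest adult value in VMH replicate 1.

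Sim1 (chromosome 10, 50894754 to 50989152, plus strand) encodes a bHLH-PAS protein needed for the neurons of the paraventricular and supraoptic nuclei and is one of the known monogenic obesity genes. It was the least abundant of the 10 genes in the adult nuclei on average. THy/PHy held 11.2, 19.9 and 12.4 TPM, against 2.13 and 5.79 TPM in PVH, 2.98 to 4.90 TPM in DMH and 3.60 and 2.20 TPM in VMH. The lowest nuclei were ARH (0.886, 1.59 and 1.12 TPM) and LHA (0.875 to 1.57 TPM). No adult library reached the lowest embryonic one (log2 difference 2.68, SE 0.37, adjusted p = 1.02e-09). Sim1 was not called higher in PVH than in the other 4 nuclei (log2 difference 0.90, SE 0.45, adjusted p = 0.273). It was called lower in ARH (log2 difference -1.28, SE 0.40, adjusted p = 0.0234), a call that was lost without ARH replicate 1 (-1.07), without ARH replicate 3 (-1.31) and without PVH replicate 2 (-1.10).

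Otp (chromosome 13, 94875602 to 94885130, plus strand) encodes a homeodomain protein of the same neurosecretory neurons. Its 3 THy/PHy values were 129, 170 and 148 TPM. The ARH libraries held 40.3, 92.4 and 50.8 TPM, the VMH libraries 31.1 and 23.1 TPM and the PVH libraries 11.9 and 34.7 TPM. DMH (13.7 to 21.5 TPM) and LHA (6.20 to 12.1 TPM) were lower still, so that embryonic and adult libraries did not overlap (log2 difference 2.80, SE 0.44, adjusted p = 7.54e-09). ARH was called above the other nuclei (log2 difference 1.77, SE 0.46, adjusted p = 0.00119), but not without ARH replicate 2 (1.30), and LHA below them (log2 difference -1.69, SE 0.49, adjusted p = 0.0167), but not without LHA replicate 1 (-1.63) or LHA replicate 2 (-1.52). With limma on log2(TPM + 0.1) neither was called (1.78, adjusted p = 0.0684, and -1.71, adjusted p = 0.0836), nor was LHA with DESeq2 (-1.70, adjusted p = 0.0548). PVH was not called different (log2 difference 0.11, SE 0.54, adjusted p = 1.00).

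In some of the groups, Sim1 and Otp varied between replicates together with the PVH markers (summed TPM of Oxt, Avp, Crh and Trh), a relation looked for after the values were seen. In PVH the markers were at 773 TPM in replicate 1 and 3334 TPM in replicate 2, and both genes were higher in replicate 2. In VMH the markers were at 1298 and 294 TPM, and both genes were higher in replicate 1. In the 4 DMH libraries, at 115, 23.3, 72.6 and 66.1 TPM, the markers, Sim1 and Otp had the same order. The ARH sums were 839, 2564 and 395 TPM, and replicate 2 had the highest Otp and Sim1, but replicates 1 and 3 ran the other way for both genes. The highest sums of LHA (169 TPM in replicate 1) and THy/PHy (25.3 TPM in replicate 3) came without the highest Sim1 or Otp. The part of these neurons in the levels of Sim1 and Otp was not tested.

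Bsx (chromosome 9, 40874127 to 40880057, plus strand) encodes a homeodomain protein of arcuate and dorsomedial neurons that regulates the neuropeptides Agrp and Npy. Its highest mean was found in ARH, with 21.1, 20.5 and 24.5 TPM, and the THy/PHy libraries held 18.2, 20.3 and 12.7 TPM. DMH ranged from 5.93 to 14 TPM and LHA from 1.42 to 3.25 TPM, while both PVH libraries were near 0 (0.0765 and 0.0807 TPM). The 2 VMH libraries differed widely, at 2.05 and 17.1 TPM. Bsx was the only gene of the 10 for which THy/PHy was not called above ARH, DMH or VMH, with log2 differences of -0.28 (SE 0.50), 0.72 (SE 0.47) and 0.90 (SE 0.56). It was also the only gene called higher in DMH than in the other nuclei (log2 difference 2.08, SE 0.45, adjusted p = 0.00120), next to a larger difference in ARH (log2 difference 3.34, SE 0.47, adjusted p = 1.55e-08). Its call in VMH (log2 difference 1.86, SE 0.54, adjusted p = 0.0152) rested on VMH replicate 2, without which the difference was -0.35.

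Hmx2 and Hmx3 encode homeodomain proteins needed for the growth-hormone-releasing neurons of the arcuate nucleus and for the inner ear. They are neighbours on the plus strand of chromosome 7, with Hmx3 at 131542867 to 131544925 and Hmx2 at 131548773 to 131558014, 3847 bases apart. Their profiles were nearly parallel over the 22 brain regions (Pearson r = 0.98 of the log2 group means, a description over regions that share libraries). For this reason the sequences at their starts are shown, from RefSeq for GRCm38.p6, each covering 250 bases before and 50 after an annotated start, 5′ to 3′, with the motif TATAAA in capitals. Hmx2 has 2 annotated starts, at chr7:131548507-131548806 (first line) and chr7:131554043-131554342 (second line), and Hmx3 has 1, at chr7:131542713-131543012.
Hmx2, upstream start: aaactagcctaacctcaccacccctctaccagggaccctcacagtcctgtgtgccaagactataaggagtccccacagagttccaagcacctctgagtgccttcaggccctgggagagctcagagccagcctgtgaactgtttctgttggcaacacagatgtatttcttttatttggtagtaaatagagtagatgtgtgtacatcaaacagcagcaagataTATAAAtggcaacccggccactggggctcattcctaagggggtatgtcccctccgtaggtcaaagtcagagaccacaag
Hmx2, downstream start: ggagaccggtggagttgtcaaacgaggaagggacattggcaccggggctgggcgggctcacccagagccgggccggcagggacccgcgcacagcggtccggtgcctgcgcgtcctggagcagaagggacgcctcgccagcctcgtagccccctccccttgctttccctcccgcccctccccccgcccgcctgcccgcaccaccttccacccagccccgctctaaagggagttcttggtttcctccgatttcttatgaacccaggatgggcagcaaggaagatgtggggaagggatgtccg
Hmx3: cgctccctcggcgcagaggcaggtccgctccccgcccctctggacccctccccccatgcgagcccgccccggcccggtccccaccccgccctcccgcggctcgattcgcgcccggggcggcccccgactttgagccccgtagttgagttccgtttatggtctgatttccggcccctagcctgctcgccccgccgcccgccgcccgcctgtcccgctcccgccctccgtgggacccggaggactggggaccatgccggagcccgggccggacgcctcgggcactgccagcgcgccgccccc
TATAAA was searched on both strands and lay 29 bases before the upstream start of Hmx2, as it is found anywhere in 13.6% of 32544 promoters of this length. It was not found in the other windows, which were rich in CpG, with 22 (Hmx2, downstream start) and 39 (Hmx3) CpG dinucleotides against 2 at the upstream start of Hmx2 and a median of 7 over all promoters. The homeodomain core TAATTA, in 5.29% of all promoters on either strand, was in none of these 3 windows. Nor was the NK2 homeodomain core CAAGTG, which 13.5% of promoters hold. The transcript from the upstream start of Hmx2 took 61.5 to 70.5% of its TPM in THy/PHy, 71.6 to 87.8% in ARH and 72.7 to 82.2% in VMH, estimates that are uncertain with single reads of 33 bases.

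The reads of both genes can be told apart nearly everywhere. The transcripts of Hmx2 and Hmx3 share 7 stretches of 33 bases, all within 1 coding run of 39 bases (capitals mark the shared bases), which lies at chr7:131555660-131555698 in Hmx2 and at chr7:131544300-131544338 in exon 2 of Hmx3.
Hmx2 and Hmx3, shared run: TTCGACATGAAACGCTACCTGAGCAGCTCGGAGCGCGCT
Over all 10 genes, at most 2.14% of such stretches (Nkx2-1) were shared with any other gene.

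Hmx2 reached 26.2, 22.0 and 11.2 TPM in THy/PHy, and Hmx3 reached 27.3, 17.8 and 8.57 TPM. In ARH the values were 4.99, 7.21 and 7.56 TPM for Hmx2. For Hmx3 they were 8.18, 17.2 and 13.6 TPM. The VMH replicates differed for both genes, at 3.36 and 10.3 TPM for Hmx2 and 5.32 and 17.7 TPM for Hmx3, with VMH replicate 2 the higher as for Bsx. DMH and LHA held 0.660 to 3.97 TPM of Hmx2 and 1.41 to 7.36 TPM of Hmx3, and PVH at most 0.7005 and 0.749 TPM. Hmx2 was separated from all adult libraries in the embryo (log2 difference 3.25, SE 0.50, adjusted p = 1.92e-08), whereas the THy/PHy and adult libraries overlapped for Hmx3 (log2 difference 2.23, SE 0.56, adjusted p = 0.000149). Against ARH, the stage difference was 1.78 for Hmx2 (SE 0.63, adjusted p = 0.0169) and 0.50 for Hmx3 (SE 0.69, adjusted p = 0.557), but the difference between the 2 genes was itself not tested. Both were higher in ARH than in the other nuclei, by 1.84 (SE 0.53, adjusted p = 0.00446) and 2.16 (SE 0.59, adjusted p = 0.00228). Both were lower in PVH, with log2 differences of -2.92 (SE 0.79, adjusted p = 0.0251) and -4.06 (SE 0.95, adjusted p = 0.00683), though neither was called without PVH replicate 2 (-2.15 and -3.08), nor Hmx2 without PVH replicate 1 (-4.66) or VMH replicate 2 (-2.69).

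Lhx9 (chromosome 1, 138825186 to 138848577, minus strand) encodes a LIM-homeodomain protein of diencephalic, midbrain and hindbrain neurons. Its distribution differed from those of the other 9 genes. Within the hypothalamus it was highest in PVH, with 15.5 and 19.3 TPM, above the values of 8.69, 10.1 and 20.7 TPM in THy/PHy on average. DMH (4.07 to 5.24 TPM), LHA (2.75 to 4.04 TPM) and VMH (2.64 and 3.22 TPM) were lower, and no ARH library exceeded 0.949 TPM. The embryonic excess over the 5 nuclei was the smallest of the 10 genes (log2 difference 1.92, SE 0.41, adjusted p = 1.15e-05), and THy/PHy was not called different from PVH (log2 difference -0.40, SE 0.57, adjusted p = 0.580). Lhx9 was the only gene of the 10 called higher in PVH than in the other nuclei (log2 difference 2.91, SE 0.49, adjusted p = 1.45e-06), and it was lower in ARH (log2 difference -2.87, SE 0.54, adjusted p = 9.18e-05). The thalamic markers (summed TPM of Tcf7l2, Gbx2, Lhx2 and Prkcd) were also high in the libraries with much Lhx9, at 464 and 457 TPM in PVH and 428 TPM in THy/PHy replicate 3, against 172 and 166 TPM in the other THy/PHy libraries, 31.7 to 52.7 TPM in VMH and ARH and 49.8 to 387 TPM in DMH and LHA. THy/PHy replicate 3 had in turn the lowest embryonic values of Nkx2-1, Nr5a1, Bsx, Hmx2, Hmx3 and Fezf1. The part of thalamic tissue in these values was not tested.

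Among the adult nuclei the 10 genes formed different combinations. ARH was called higher than the mean of the other 4 nuclei for 8 of the 10 genes (4.71% of all genes) and lower for Sim1 and Lhx9 (2.19%). VMH was higher for Nr5a1, Fezf1, Bsx, Nkx2-1 and Hmx2, which is 5 genes (0.791%), and lower for 0 (0.681%). Hmx3 was not called in VMH, with a log2 difference of 1.95 (SE 0.68, adjusted p = 0.0567). PVH was higher for Lhx9 only (1.42%) and lower for 5 genes, Nkx2-1, Nr5a1, Bsx, Hmx2 and Hmx3 (0.616%), a number that fell to 2 without PVH replicate 2. DMH was higher for Bsx (0.445%) and lower for Nr5a1 and Fezf1 (0.155%). LHA was higher for 0 genes (2.32%) and lower for Nr5a1, Otp and Fezf1 (2.73%). In VMH only Lhx9 had a negative difference (-0.41, SE 0.54), and in LHA no gene had a positive difference beyond 0.01.

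The calls in VMH are of unequal weight. Nr5a1 and Fezf1 stayed called in every alternative run, whereas the differences of Nkx2-1 (1.39, SE 0.45, adjusted p = 0.0471) and Hmx2 (1.87, SE 0.62, adjusted p = 0.0440) lay close to the threshold. Both calls were lost when any of the 3 ARH libraries, DMH replicate 2, 3 or 4, LHA replicate 1 or 2, PVH replicate 2 or VMH replicate 2 was left out, and that of Nkx2-1 also without VMH replicate 1 (1.54). Without VMH replicate 2 they were 1.23 and 0.96, and 2 genes were called in VMH. The lower call of Nr5a1 in DMH (-2.52, SE 0.54, adjusted p = 0.0241) was likewise lost when DMH replicate 2 or 3, LHA replicate 3 or either PVH library was left out (-2.23 to -2.52). ARH held 79.9 to 120 TPM of summed pituitary markers (Cga, Fshb, Lhb, Tshb, Gh, Prl, Pou1f1 and Tbx19), against 1.89 to 18.8 TPM in the other 4 nuclei and 6.53 to 29.9 TPM in THy/PHy. Most of the ARH sum was Cga, at a mean of 78.9 TPM. Among the adult nuclei each of these markers had its highest mean in ARH except Pou1f1, at 0.0486 TPM in ARH and 0.0832 TPM in DMH. Pituitary cells are known to express Nr5a1 and Isl1 too, and the part of pituitary tissue in the ARH values was not tested.

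In the adult brain all 10 genes were higher in the 5 nuclei than in the 13 other regions, a call made for 6.11% of all genes. For 8 of the 10 genes at least 1 of the other regions had no read, so that levels are given here rather than fitted differences. The mean of the 5 nuclei was 15.8 TPM for Nkx2-1 against 0.398 TPM elsewhere, 17.9 against 0.0391 TPM for Fezf1, 10.4 against 0.0199 TPM for Nr5a1 and 8.93 against 0.0283 TPM for Bsx. It was 27.4 against 2.14 TPM for Isl1, 6.43 against 0.355 TPM for Hmx3, 3.50 against 0.208 TPM for Hmx2 and 2.70 against 0.0415 TPM for Sim1. Otp (27.5 against 2.29 TPM) was higher by 5.25 (SE 0.41, adjusted p = 2.15e-22) and Lhx9 (5.80 against 1.62 TPM) by 2.32 (SE 0.27, adjusted p = 1.64e-11). Only for Sim1 and Fezf1 did all 14 hypothalamic libraries lie above all 43 others, which was the case for 20 genes in all (0.103%). Without PVH replicate 1, which leaves PVH with no read of Hmx3, the call of Hmx3 was lost and 9 of the 10 genes were called.

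**Figure D3:**
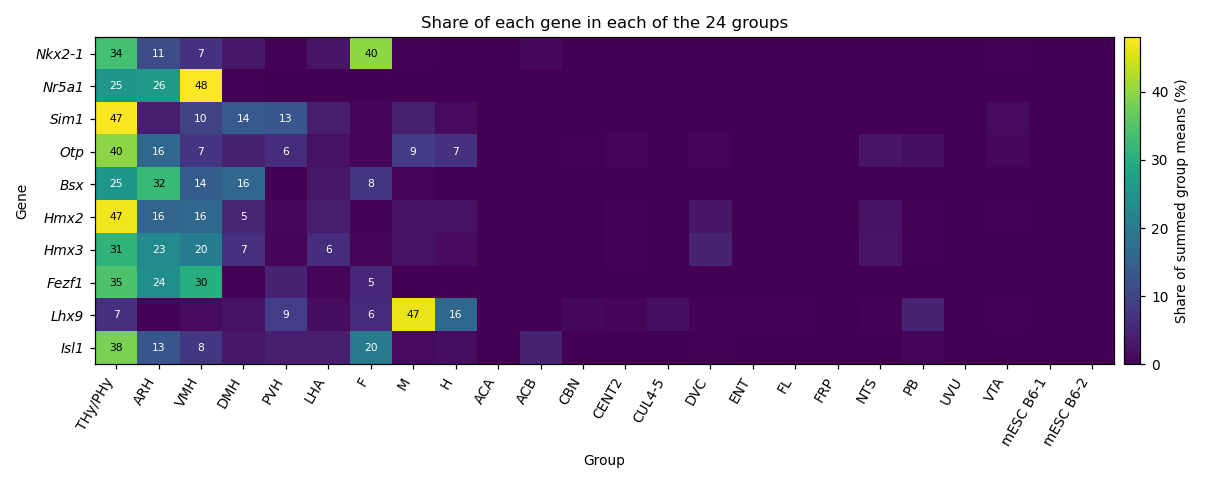
Share of each gene's summed group means of TPM that falls on each group, in percent, for the 10 genes over 24 groups. The hypothalamic groups hold between 21.05% (Lhx9) and 99.46% (Nr5a1), and the columns of M for Lhx9 and F for Nkx2-1 hold the largest share outside the hypothalamus.

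The share of a gene that fell on the hypothalamus, embryonic and adult, described how far the genes were restricted to it. Nr5a1 had 99.46% of its summed group means there, Fezf1 94.16%, Sim1 91.7% and Bsx 91.03%. Hmx2 (88.48%), Hmx3 (87.5%), Otp (76.08%) and Isl1 (70.21%) were less restricted, and Nkx2-1 (58.2%) and Lhx9 (21.05%) least. THy/PHy was the group with the highest mean for Sim1, Otp, Hmx2, Hmx3, Fezf1 and Isl1. For Hmx3 and Fezf1 it exceeded the next group by less than the spread between libraries. The single F library was highest for Nkx2-1, VMH for Nr5a1, ARH for Bsx and M for Lhx9. The embryonic stem cells held at most 0.358% of any of the 10 genes.

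Several of the 10 genes were also found in adult regions outside the hypothalamus, each region being compared with the other 12. In the nucleus accumbens, Isl1 (20.3 TPM ± 0.661, SD, n = 3, against 0.619 TPM in the other 12 regions) and Nkx2-1 (3.76 TPM ± 1.87, against 0.118 TPM) were called higher, as were 7.89% of all genes, and the striatal markers (Drd1, Drd2, Ppp1r1b and Adora2a) summed to 1722 to 2274 TPM there. Otp was highest outside the hypothalamus in NTS (9.57 TPM ± 3.12, n = 4), where it exceeded the other regions by 4.53 (SE 0.54, adjusted p = 4.11e-13). It was also higher in PB (7.68 TPM, log2 difference 4.07, SE 0.59, adjusted p = 1.87e-09). Lhx9 was higher in PB as well (9.08, 12.02 and 6.68 TPM, log2 difference 4.01, SE 0.42, adjusted p = 6.82e-14), and 5.59% of all genes were called higher there. Hmx2 and Hmx3 were called in both regions of the dorsal medulla, with 1.26 and 2.60 TPM in DVC and 0.992 and 1.44 TPM in NTS, where 5.24% and 6.00% of all genes were called. In VTA, most of the signal of Nkx2-1 came from replicate 1, with 2.27 TPM against 0 and 0.0773 TPM in the other 2 libraries, and this library also had the highest mitochondrial share, 39.6% of its TPM.

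**Figure D4:**
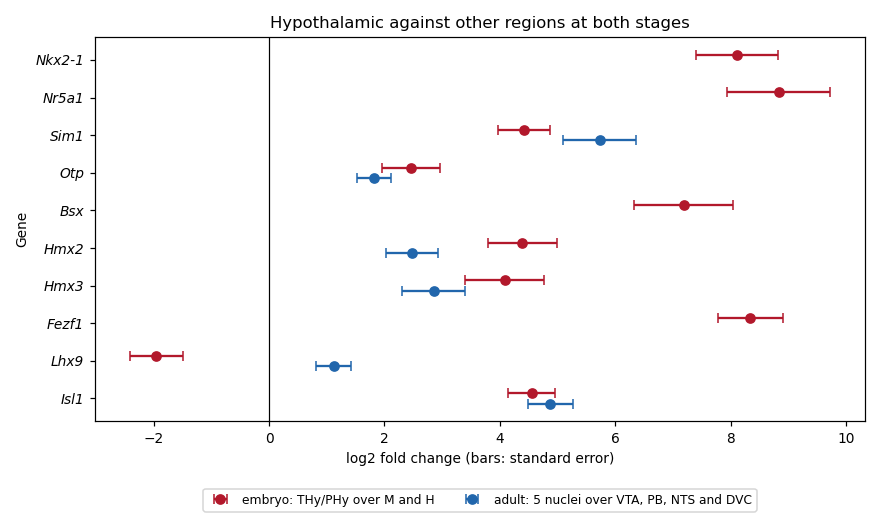
Log2 difference between hypothalamus and midbrain or hindbrain regions for the 10 genes, in the embryo (THy/PHy against M and H) and in the adult (5 nuclei against VTA, PB, NTS and DVC). Whiskers are 1 standard error, and the adult value is not drawn for Nkx2-1, Nr5a1, Bsx and Fezf1, which had a region without reads. Lhx9 is the only gene on opposite sides of 0 in the 2 stages, at -1.95 and 1.12.

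In the embryo 9 of the 10 genes were higher in THy/PHy than in M and H (1.44% of all genes), and Lhx9 was lower (1.74%). The differences were largest for Nr5a1 (8.83, SE 0.89, adjusted p = 1.09e-15), Fezf1 (8.34, SE 0.57, adjusted p = 6.99e-17), Nkx2-1 (8.10, SE 0.71, adjusted p = 9.78e-14) and Bsx (7.18, SE 0.86, adjusted p = 1.03e-11). Isl1 (4.55, SE 0.41), Sim1 (4.42, SE 0.45), Hmx2 (4.39, SE 0.60) and Hmx3 (4.08, SE 0.68) followed. Otp had the smallest positive difference (2.46, SE 0.51, adjusted p = 0.000533), as M held 18.04 and 46.9 TPM and H 2.88, 38.1 and 35.4 TPM. Libraries of THy/PHy lay above those of M and H for these 9 genes without overlap, which held for 2.66% of all genes. H replicate 1, which was low in Otp and Lhx9, also had the lowest sum of neuron markers of the 3 libraries (519 against 1466 and 1885 TPM). It had the lowest depth of the series, 9074581 estimated reads. Its mitochondrial share was 22.6% of TPM, against 11.8% in H replicate 2 and 6.1% in H replicate 3. The part of these differences was not tested. Adding F left the 9 genes called and none lower.

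Lhx9 held 103 and 83.9 TPM in M and 11.9, 64.1 and 20.9 TPM in H, and was lower in THy/PHy (log2 difference -1.95, SE 0.46, adjusted p = 0.00590). The call was lost when F was added to the mean (-1.11, adjusted p = 0.137), without THy/PHy replicate 1 (-1.63, adjusted p = 0.0656) and without THy/PHy replicate 2 (-1.77, adjusted p = 0.0556). In the adult, Lhx9 was higher in the 5 nuclei than in VTA, PB, NTS and DVC (log2 difference 1.12, SE 0.30, adjusted p = 0.00131), where all 10 genes were called higher (4.70% of all genes). These are means over regions. PB, at a mean of 9.26 TPM of Lhx9, lay below PVH (17.4 TPM) but above DMH (4.65 TPM), LHA (3.25 TPM), VMH (2.93 TPM) and ARH (0.780 TPM). The difference between both stages was tested as the embryonic regional difference less the adult one. The partner regions are not the same at both stages, so stage and the regions sampled cannot be told apart. The value was -3.07 for Lhx9 (SE 0.55, adjusted p = 7.82e-05), the only one of the 10 genes called (3.79% of all genes called lower and 2.85% higher). Under every alternative run it stayed called, between -2.57 and -4.26, but no run used the same regions at both stages. For Hmx2 the value was 1.90 (SE 0.75, adjusted p = 0.0706), for Sim1 -1.31 (SE 0.77, adjusted p = 0.138), for Hmx3 1.23 (SE 0.86, adjusted p = 0.381), for Otp 0.64 (SE 0.59, adjusted p = 0.503) and for Isl1 -0.31 (SE 0.56, adjusted p = 0.776). No value is given for the other 4 genes, which had an adult region without reads. Hmx2 was called when M replicate 2 (3.84, adjusted p = 0.00286), H replicate 2 (2.19, adjusted p = 0.0450), PVH replicate 1 (2.25, adjusted p = 0.0363), VMH replicate 2 (2.08, adjusted p = 0.0497) or VTA replicate 1 (2.04, adjusted p = 0.0416) was left out, and Sim1 without VTA replicate 1 (-1.77). For the genes with a value other than Lhx9, calls or signs also changed with the test or with the regions chosen as partners.

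Other genes of the hypothalamus were compared through 2 lists, chosen with earlier results of these data known. Of 36 further hypothalamic transcription factors, 34 were higher in THy/PHy than in the 5 adult nuclei and 0 lower, with a median log2 difference of 2.87, where 18.2% of all genes were called higher and 3996 of 19980 lower. Dbx1, a homeodomain gene of progenitor cells, was at 38.9 TPM in THy/PHy and had no read in any adult hypothalamic library. Neurog3, a proneural gene, held 4.26 against 0.0275 TPM, Rax, a retinal and hypothalamic homeodomain gene, 20.5 against 3.53 TPM (log2 difference 5.95, SE 0.54) and Six6 23.7 against 2.54 TPM (5.42, SE 0.41). The fitted folds, 61.8 for Rax and 42.8 for Six6, exceed the ratios of these mean TPM values, as each nucleus weighs the same on the log scale. The smallest differences among those called were in Prox1 (1.00, SE 0.15), Foxp2 (1.33, SE 0.22), Lhx6 (1.49, SE 0.26) and Foxb1 (1.62, SE 0.31). Arnt2, whose protein pairs with that of Sim1, was at 122 against 102 TPM and was not called (0.27, SE 0.12), nor was Ikzf1 (-0.73, SE 0.23).

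Neuropeptides and enzymes of hypothalamic neurons were mostly lower in the embryo. Of 21 genes, 17 were lower in THy/PHy than in the mean of the 5 nuclei and 1 was higher, with a median log2 difference of -2.31, while 3996 of all 19980 genes were called lower. Oxt, which encodes oxytocin, was at 0.413 against 400 TPM (-8.17, SE 1.60), Hcrt, the precursor of the orexins, at 0.979 against 518 TPM (-6.49, SE 0.75), Avp, the precursor of vasopressin, at 1.61 against 360 TPM (-6.35, SE 1.19) and Pmch, the precursor of melanin-concentrating hormone, at 28.9 against 2016 TPM (-4.98, SE 0.32). The smallest decreases on the log2 scale were in Penk (49.1 against 116 TPM, -1.19, SE 0.23), Agrp (1.24 against 27.4 TPM, -1.38, SE 0.47) and Ghrh (7.01 against 39.6 TPM, -1.74, SE 0.41). Agrp averaged 132 TPM in ARH but only 0.916 (DMH) to 1.71 TPM (VMH) in the other nuclei, which weigh the same as ARH. Its fitted decrease is therefore smaller than the one in mean TPM. Pomc, the precursor of the melanocortins, was called higher (2.14, SE 0.30, adjusted p = 1.15e-09) although its mean TPM was lower, at 71.7 against 115, since it was concentrated in ARH. In the adult brain 17 of these 21 genes and 20 of the 36 transcription factors were higher in the 5 nuclei than elsewhere, as were 6.11% of all genes. Against M and H in the embryo, 7 of the 21 and 19 of the 36 were higher and 1 and 4 were lower, against 1.44% and 1.74% of all genes.

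The genes most alike to each of the 10 in their profile over the 22 brain regions were chosen by Pearson's r between profiles of group means on the scale log2(TPM + 1), which is a description. For Nr5a1 these were Nr0b1 (r = 0.992), which encodes a nuclear receptor, and Tbx19 (0.917), a pituitary T-box gene. Sim1 was most like its paralog Sim2 (0.895) and Gsc (0.879). Bsx, Hmx2 and Hmx3 had the same first gene, Nkx2-4, with r of 0.922, 0.915 and 0.906. Otp was most like Parp8 (0.933) and Magel2 (0.920), Nkx2-1 like Vax1 (0.926) and Dlx2 (0.863), and Fezf1 like Tex16 (0.913) and Nr0b1 (0.907). Lhx9 and Isl1 had Rgma (0.890) and Rps27 (0.901) first. Of the 20 pairs of a gene and its most alike genes, 2 were found again with Spearman's rho, 3 over the 18 adult regions and 9 with a pseudocount of 0.1.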

How the data were processed

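Libraries were made with a strand-specific mRNA kit from punched brain tissue or cultured stem cells and sequenced as single reads of 33 bases. According to the submitters' processing notes, reads were called with CASAVA 1.8.2 and aligned with kallisto to the transcripts of GRCm38. The strand setting of kallisto is not given in the sources used here. The authors deposited kallisto estimated counts per transcript, not normalized between libraries, and TPM per transcript and per gene, in which counts were divided by transcript length and scaled within each library.

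Of 109282 transcripts, 107987 were matched to genes by name through the GENCODE annotation of the same build, and 0.418 to 0.767% of the estimated counts of a library were on unmatched transcripts. The estimated counts of a gene's transcripts were added up and rounded to whole reads, and for the 10 members the matched transcripts gave the deposited gene TPM. Counts of 19980 genes in all 70 libraries were fitted with 1 coefficient per group in edgeR 4.0.16 (R 4.3.3, TMM, filterByExpr, quasi-likelihood test, Benjamini-Hochberg over all genes tested). Calls required an adjusted p below 0.05 together with a log2 difference of more than 1 in size. Standard errors came from the covariance of the fit, and none is given where a group had no read. Differences to several groups use the mean of their coefficients, so each group weighs the same on the log2 scale. The method was tested on simulated counts with 200 genes changed in THy/PHy. The other means were the same in every group, and the dispersion was the same for every gene. Genes near 0 in some nuclei only were not simulated, so the simulation does not cover them. Alternatives used DESeq2 1.42.0, limma 3.58.1 on log2(TPM + 0.5) or log2(TPM + 0.1) for genes with at least 1 TPM in at least 2 libraries, no filter, a replicate block, other sets of libraries and each library of the hypothalamic groups, M and H left out in turn. Tables and figures were made with Python 3.11.15, pandas 2.3.3 and matplotlib 3.10.9.

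Groups followed the labels. Replicate libraries differed by more than counting noise (chi-square per gene of at least 2.59 over 74 pairs), and none was taken as a duplicate. The sources used here do not say that replicate numbers mark shared animals or batches. Deviations from the group means of same-numbered libraries had a median correlation of -0.012 (36 pairs, of which 2 were over 0.1), so the numbers were not used as pairs. The labels also hold running numbers, which set libraries with different replicate numbers side by side, such as ARH replicate 1 and LHA replicate 2. What the running numbers mark is not stated. They were not used as pairs, and the replicate block does not account for them. Over the 70 libraries the median depth was 17016935 reads. P-values measure the spread between pools.

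The 10 members, the lists of further genes and the markers were chosen with earlier results of these data known. Named are the members, of each further list those called with the 4 largest and 4 smallest log2 differences in the comparison of THy/PHy with the 5 nuclei, and for each member the 2 genes with the most alike profile among genes with at least 1 TPM in 1 or more brain regions. Arnt2, Ikzf1 and the relation of Sim1 and Otp to the PVH markers fall outside this rule and were chosen after their values were seen. Of annotated genes that overlap a member, those antisense to Nkx2-1 (Gm26973) and Nr5a1 (Nr5a1os) had no transcript in the deposited table. The span of Fgfr2 contains Hmx2 and Hmx3 on the other strand. Reads were assigned to transcript sequences, so an overlap of spans alone does not mix the reads of such a pair. Where the transcripts themselves overlap on opposite strands, their reads cannot be told apart without the strand setting. Promoter sequences came from RefSeq for GRCm38.p6, in which the promoter of Nr5a1 was not among those used here.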

Additional observations from a re-analysis of the deposited data

Results flagged for a closer look

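Otp in CENT2 reached 9.991 TPM in replicate 1 against 0.345, 0.142 and 0.288 TPM in the other 3 libraries, and the gap exceeded Dixon's 95% critical value for 4 samples. It was 1 of 14 pairs of a gene and a group of 4 libraries, with a mean of at least 1 TPM, that were examined. Chance gives about 1 in 20 for each pair. Otp was called higher in CENT2 than in the other 12 adult regions, as were 7.67% of all genes. This call includes replicate 1, and no run left that library out.

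The regional difference of Lhx9 differed between the stages by -3.07 on the log2 scale (SE 0.55, edgeR, adjusted p = 7.82e-05). The log2 difference was -1.95 (SE 0.46) between THy/PHy and the mean of M and H, and 1.12 (SE 0.30) between the adult nuclei and the mean of VTA, PB, NTS and DVC. These partner regions are not the same at both stages, so stage and the regions sampled cannot be told apart.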

How the results depend on the processing

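All 10 members were called higher in THy/PHy than in the mean of the 5 nuclei under each alternative except with the adult libraries as 1 group, where 5 were. That setting weighs libraries rather than nuclei and averages the adult counts rather than their logs. It also takes the spread between nuclei into the error. Which of these lowered the number was not tested. Leaving out 1 library kept 10 in every run (all genes higher 3383 to 3772, lower 3730 to 4001), and 9 to 10 members higher in the 5 nuclei than in the other regions. Against M and H, 9 were higher in every run without 1 library and 0 to 1 lower, and 0 were lower with F added. Where the cause of a change is not named below, the cause was not tested.

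The difference between the stages was the least stable comparison. Its number of members higher, 0, became 1 without ARH in the adult mean and with DESeq2, 5 with limma and a pseudocount of 0.1, and 7 with limma and 0.5, with or without a filter. With the 13 other adult regions as partners, 5 were lower. Leaving out 1 library gave 0 to 1 higher and 1 to 2 lower, the second lower member appearing without VTA replicate 1. Sim1 changed sign with limma (1.27 with a pseudocount of 0.5, with or without a filter, and 0.22 with 0.1), as did Isl1 (0.42 with 0.5, with or without a filter). With the 13 other adult regions Otp was at -2.79, Hmx2 at -1.48 and Hmx3 at -2.03.

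Among the nuclei, the number of members lower in ARH was 1 with limma and a pseudocount of 0.5, with or without a filter, and 1 to 2 without 1 library. In DMH 2 were higher in a fit of the 17 hypothalamic libraries alone and with limma and 0.1, and 1 to 2 were lower without 1 library. In LHA 2 to 3 and in PVH 2 to 5 were lower, and in ARH 7 to 8 were higher. In VMH 3 were higher without a filter on low counts, 2 with DESeq2, 2 with limma and 0.1, and 2 to 6 without 1 library. Bsx in VMH was at -0.35 without VMH replicate 2 and at 2.69 without VMH replicate 1. With the replicate number as a block, 3 members were higher in VMH, where Nkx2-1 and Hmx2 were no longer called, and no other count of members moved by over 1.5 times. Of the share of each gene in THy/PHy and the genes with alike profiles, only the latter moved by more than the spread, with 2, 3 and 9 of 20 pairs shared. Leaving out VTA replicate 1 and ARH were chosen after seeing the data. Depth limits members with few reads in a group, such as Nr5a1 in PVH.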
